A study of Mus musculus with 10 samples.

Results

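Genes of the motile cilium are described here in hearts of 1 week old mice. Their members were taken from 3 deposited gene tables by name: Foxj1, and every row named as an axonemal dynein heavy chain (Dnah), intermediate chain (Dnaic) or light intermediate chain (Dnali1), a dynein arm assembly factor (Dnaaf), a cilia and flagella associated protein (Cfap), a radial spoke protein (Rsph) or a tektin (Tekt). The rule found 47 genes of 17575 named in at least 1 table, and 46 of the 16440 named in all 3. The set was chosen by name after the fold changes of these genes between the same groups of hearts had been seen, so the values below are a description and none was tested.

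Ft1ko mice (3 hearts) lack Ft1, the mouse gene Aktip, in the whole body, through Ft1 floxed animals crossed with a CMV-cre line. Ft1sm22ko mice (4 hearts) carry the floxed gene with a cre driven by the sm22 (Tagln) promoter, a marker of vascular smooth muscle cells, so that depletion is limited to cells in which this promoter has been active. WT mice (3 hearts) served as the reference, and the methods of the study give all 10 animals as male. Ft1 is needed for the integrity of telomeres, and the study asked how depletion in smooth muscle cells compares with depletion in the whole animal.

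Each table gives, for 1 pair of groups, a single mean of normalized counts per gene over the hearts of both groups, called a pooled mean below. Pooled means cover Ft1ko with WT (6 hearts), Ft1ko with Ft1sm22ko (7 hearts) and Ft1sm22ko with WT (7 hearts). They were put on 1 scale, and the 3 group means of each gene were solved from them. No value per heart was used, so a group mean has no SD, and whether a level was shared by all hearts of a group or came from 1 of them cannot be told apart. The range in parentheses after a group mean is its range over 4 ways of scaling and not an error between hearts. A mean under 5% of the gene's largest pooled mean was set to that floor, so that its ratio depends on the floor and on the scaling. Sums over a list have such means at their floors unless said otherwise.

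The solved mean of Aktip was 229.8 normalized counts in Ft1ko hearts, 388.8 in Ft1sm22ko hearts and 891.5 in WT hearts. Cardiac muscle genes were present in every group, with Myh6, the main heavy chain of adult mouse heart muscle, at 172400 in Ft1ko, 337600 in Ft1sm22ko and 907000 in WT hearts. Sex-linked genes did not match animals of 1 sex. Xist, which is transcribed from the inactive X chromosome of females, solved to under its floor of 288.5 in Ft1ko hearts, 5796 in Ft1sm22ko hearts and 5737 in WT hearts, while the Y-linked Ddx3y was at 960.8 in Ft1ko, 208.2 in Ft1sm22ko and 661.6 in WT hearts. Sex and genotype therefore cannot be told apart in any comparison below.

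Motile cilia beat through dynein motors that slide the outer doublet microtubules of a ring around a central pair. Outer and inner dynein arms supply the force, radial spokes pass signals from the central pair to the arms, tektins and other inner proteins stiffen the doublets, and assembly factors fold the dyneins in the cytoplasm before they enter the cilium. Foxj1, helped by factors of the RFX family, switches these genes on. Multiciliated cells line airways, brain ventricles and oviducts, and heart muscle is not known for motile cilia. In RNA from samples labelled as heart, more cells of a ciliated type and more RNA per cell cannot be told apart. The tissue to which such cells belonged was not tested.

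Of the 47 genes, 45 were in all 3 tables with a largest scaled pooled mean of at least 10 and entered the ratios. Cfap61 stayed under this minimum, with scaled pooled means of 8.46, 6.58 and 7.16 for Ft1ko with WT, Ft1ko with Ft1sm22ko and Ft1sm22ko with WT. Tekt3 was listed in 2 tables only, with deposited pooled means of 2.87 for Ft1ko with WT and 3.60 for Ft1ko with Ft1sm22ko.

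Most cilium genes were higher in Ft1ko hearts. A ratio of Ft1ko over WT of 2 or more was found for 34 of 45 genes, where 23.5% of the 14835 genes that entered reached it, and a ratio of 0.5 or less for 0 of 45, against 16.5% of all genes. Their median log2 ratio was 3.02, and that of all genes 0.06. For Ft1sm22ko over WT, 25 of 45 were higher (16.5% of all genes) and 3 lower, Dnah17, Dnah7b and Dnaaf3 (11.0% of all genes), with a median log2 ratio of 1.17 beside 0.05 for all genes. Ft1sm22ko over Ft1ko gave 0 genes higher (6.48% of all genes) and 33 lower (12.2% of all genes), and a median log2 ratio of -1.80 beside -0.01. These 3 ratios share their hearts and are not independent of each other. Without solving for group means, both pooled means that hold Ft1ko were at least 1.5 times the pooled mean of Ft1sm22ko with WT for 33 of 45 genes, and for 10.7% of all genes.

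**Figure D1:**
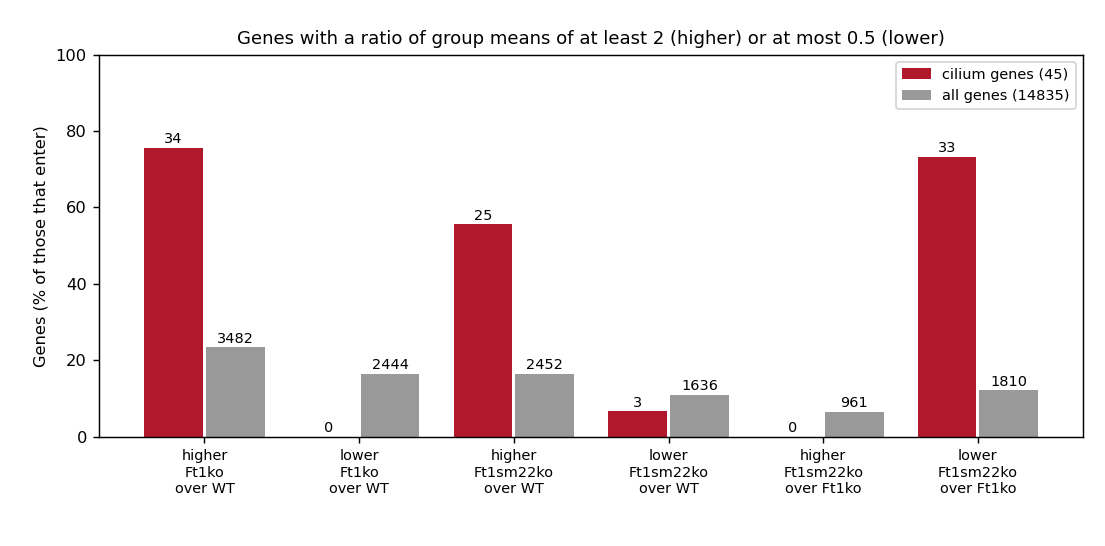
Bars give the percent of genes whose ratio of group means was at least 2 (higher) or at most 0.5 (lower) in each comparison, for the 45 cilium genes and for all 14835 genes, with the number of genes above each bar. Higher in Ft1ko over WT holds 34 cilium genes and lower in Ft1sm22ko over Ft1ko holds 33.

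Foxj1, the transcription factor that switches on the motile cilium program, had scaled pooled means of 358.7 for Ft1ko with WT, 395.0 for Ft1ko with Ft1sm22ko and 102.1 for Ft1sm22ko with WT. The 2 pools that hold Ft1ko hearts were therefore the high ones. Its solved mean was 700.5 (692.4 to 730.5) normalized counts in Ft1ko hearts and 165.9 (159.9 to 174.9) in Ft1sm22ko hearts, and in WT hearts it was 16.95 (5.01 to 25.00), under the floor of 19.75. With WT at the floor, the log2 ratio over WT was 5.15 for Ft1ko and 3.07 for Ft1sm22ko. Scaling on genes found almost only in the pools with Ft1ko put the WT mean above the floor, and the log2 ratios were then 4.79 and 2.68. Ft1sm22ko hearts held 23.7% of the Ft1ko level.

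**Figure D2:**
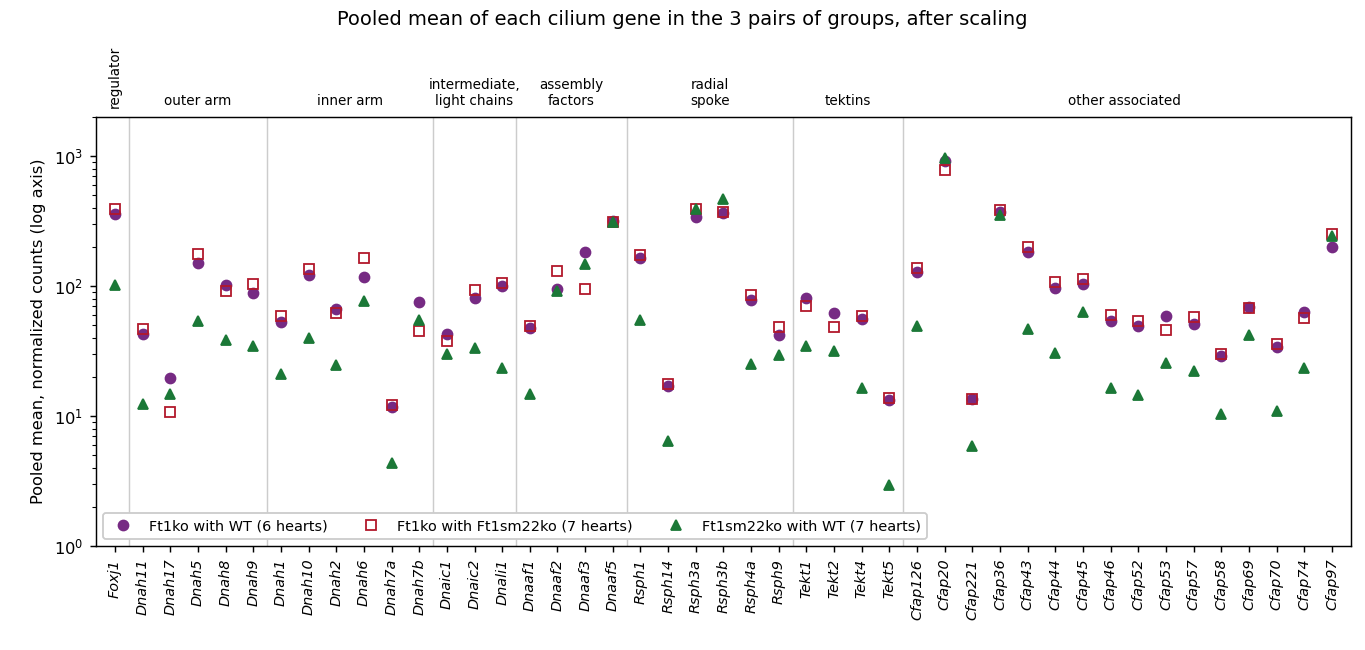
Scaled pooled means of the 45 cilium genes in normalized counts on a log axis, by role, with circles for Ft1ko with WT, open squares for Ft1ko with Ft1sm22ko and triangles for Ft1sm22ko with WT. Circles and squares lie close together and above the triangle for most genes, as for Foxj1 at 358.7, 395.0 and 102.1, while the 3 marks of Cfap20, Cfap36, Dnaaf5 and Cfap97 nearly coincide.

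Outer arm heavy chains are the motors that set beat frequency. Of 5 such genes, 4 were higher in Ft1ko than in WT hearts (23.5% of all genes). The median log2 ratio of the 5 was 4.38. Dnah5, whose loss in humans causes primary ciliary dyskinesia, was at 293.5 (289.9 to 306.5) in Ft1ko, 88.25 (85.56 to 92.38) in Ft1sm22ko and 7.93 (2.42 to 11.52) in WT hearts, with the WT mean under its floor of 8.81. Dnah9, a partner of Dnah5 in the distal part of airway cilia, was at 168.1 in Ft1ko, 54.07 in Ft1sm22ko and 8.07 in WT hearts. In both genes the order of the groups was the same, with Ft1sm22ko between Ft1ko and WT.

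Dnah8, an outer arm chain best known from sperm, was 4.12 times higher in Ft1ko than in WT hearts, but its Ft1sm22ko mean of 37.86 lay next to the WT mean of 39.90. Dnah17, the other chain known mainly from sperm, was the exception in the outer arm group, at 14.98 in Ft1ko, 7.72 in Ft1sm22ko and 24.08 in WT hearts, a ratio of 0.32 for Ft1sm22ko over WT. Of the 31-base stretches in the longest Dnah5 transcript, 0.0% after rounding occur in transcripts of Dnah8. The value was the same for Dnah9 in those of Dnah11 and of Dnah17.

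Inner arm heavy chains shape the bend of the cilium. Of 6 such genes, 5 were higher in Ft1ko than in WT hearts (23.5% of all genes). The median log2 ratio of the 6 was 3.25. Dnah10 was at 234.0 normalized counts (231.2 to 244.2) in Ft1ko, 61.71 (59.64 to 64.80) in Ft1sm22ko and 10.51 (6.40 to 13.28) in WT hearts. Dnah6 was at 221.2 in Ft1ko, 123.7 in Ft1sm22ko and 15.19 in WT hearts, so that Ft1sm22ko hearts held 55.9% of the Ft1ko level, above the 23.6% to 31.2% of the 4 other inner arm chains that were higher in Ft1ko. The remaining gene, Dnah7b, was at 64.36 in Ft1ko, 30.05 in Ft1sm22ko and 86.80 in WT hearts. Its near copy Dnah7a, at 20.79 in Ft1ko, 5.68 in Ft1sm22ko and 2.52 in WT hearts, had another order of the groups. Of the 31-base stretches in the longest Dnah7a transcript, 45.7% also occur in Dnah7b, so reads may have been split between them and both values are uncertain.

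Dnali1, a light intermediate chain of the inner arm, was at 196.2 (194.1 to 204.4) in Ft1ko, 37.58 (35.97 to 39.91) in Ft1sm22ko and 4.85 (1.75 to 7.01) in WT hearts, the last under its floor of 5.28. With WT at the floor, the log2 ratio over WT was 5.22 for Ft1ko and 2.83 for Ft1sm22ko, and 4.79 and 2.36 with the scaling on genes of the Ft1ko pools. Dnaic2, an intermediate chain that anchors the outer arm, was 13.6 times higher in Ft1ko and 4.55 times higher in Ft1sm22ko hearts than in WT. Its partner in the outer arm, Dnaic1, had a ratio of 1.52 for Ft1ko over WT. Exons of both Dnaic1 and Dnali1 overlap another gene on the opposite strand, Enho and Gnl2, as do those of members in other groups.

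Assembly factors did not share 1 pattern. Dnaaf1 had the pattern of the motors, with 88.02 in Ft1ko, 20.55 in Ft1sm22ko and 6.80 in WT hearts. Dnaaf2, a cofactor of the chaperones that fold dynein heavy chains, was about as high in both mutants, at 140.8 in Ft1ko and 122.5 in Ft1sm22ko hearts, against 49.23 in WT hearts. Dnaaf5 was near 300 normalized counts everywhere, with 323.4 in Ft1ko, 306.1 in Ft1sm22ko and 312.8 in WT hearts.

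Dnaaf3 ran the other way, at 123.0 in Ft1ko, 74.50 in Ft1sm22ko and 245.5 in WT hearts. Its exons overlap, on the same strand, those of Tnni3, the cardiac troponin I gene, which was at 19530 in Ft1ko, 50170 in Ft1sm22ko and 142300 in WT hearts. Part of the reads counted for Dnaaf3 may belong to this neighbour, and its value is uncertain. The share of Tnni3 reads was not tested.

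Radial spoke genes split by protein. Rsph1 and Rsph4a, which form the spoke head, were high in Ft1ko. Rsph1 was at 303.8 (300.3 to 317.3) in Ft1ko, 75.55 (72.90 to 79.36) in Ft1sm22ko and 27.25 (22.17 to 30.79) in WT hearts, and Rsph4a was 19.1 times higher in Ft1ko than in WT hearts. Rsph9 and Rsph14 were 3.28 and 7.70 times higher in Ft1ko. The stalk protein genes Rsph3a and Rsph3b were not. Rsph3a was at 334.1 in Ft1ko, 429.4 in Ft1sm22ko and 343.2 in WT hearts, and Rsph3b at 250.4 in Ft1ko, 461.2 in Ft1sm22ko and 482.2 in WT hearts. They share 80.7% of the 31-base stretches of Rsph3a, so how their reads divide between them is uncertain.

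Tektins, filament proteins inside the doublet wall, had a median Ft1sm22ko share of 22.6% over the 3 genes higher in Ft1ko than in WT hearts. This was the lowest of the 8 roles, but next to 23.7% for Foxj1. It leaves out Tekt2, with a ratio of Ft1sm22ko over Ft1ko of 0.29. The 3 tektins that were higher in Ft1ko than in WT hearts, Tekt1, Tekt4 and Tekt5, kept 17.8% to 25.1% of the Ft1ko level in Ft1sm22ko hearts. Tekt1 was at 122.4 (120.9 to 128.3) in Ft1ko, 30.68 (29.61 to 32.01) in Ft1sm22ko and 40.02 (38.25 to 41.45) in WT hearts. Tekt2 missed the ratio of 2 for Ft1ko over WT narrowly, at 1.95, with 81.78 in Ft1ko, 23.73 in Ft1sm22ko and 41.92 in WT hearts. In both, Ft1sm22ko hearts lay below WT. Tekt5 was the reverse case, with a WT mean of 0.72 and a ratio over WT of 6.40 in Ft1sm22ko hearts.

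Of the 16 Cfap genes that entered, 13 were higher in Ft1ko than in WT hearts (23.5% of all genes). Higher in Ft1sm22ko than in WT hearts were 8 (16.5% of all genes). Cfap43 and Cfap44, known from Chlamydomonas and Tetrahymena as parts of the tether of an inner arm, were near the top of the range. Cfap43 was at 360.7 in Ft1ko, 77.42 in Ft1sm22ko and 4.98 in WT hearts, under a floor of 9.94, and its exons overlap those of Itprip on the same strand. Cfap44 was at 187.6 in Ft1ko, 48.94 in Ft1sm22ko and 6.15 in WT hearts, a ratio over WT of 30.5 in Ft1ko and 7.96 in Ft1sm22ko. Cfap126, known as Flattop and needed to place basal bodies in multiciliated cells, was at 231.5 in Ft1ko, 66.67 in Ft1sm22ko and 26.56 in WT hearts. Cfap45, an inner protein of the doublets, differed less, at 163.0 in Ft1ko, 76.31 in Ft1sm22ko and 46.28 in WT hearts.

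Cfap20, Cfap36 and Cfap97 had ratios over WT between 0.62 and 1.26 in Ft1ko and between 0.75 and 1.51 in Ft1sm22ko hearts. Cfap20, which closes the inner junction of the doublets and is also found at centrioles, was at 704.3 in Ft1ko, 848.4 in Ft1sm22ko and 1135 in WT hearts. Cfap97 was at 214.2 in Ft1ko, 282.4 in Ft1sm22ko and 187.4 in WT hearts. With Dnaaf5, Rsph3a and Rsph3b, these are the cilium genes whose WT level was over 180 normalized counts, apart from Dnaaf3. All other members had a WT mean under 90.

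**Figure D3:**
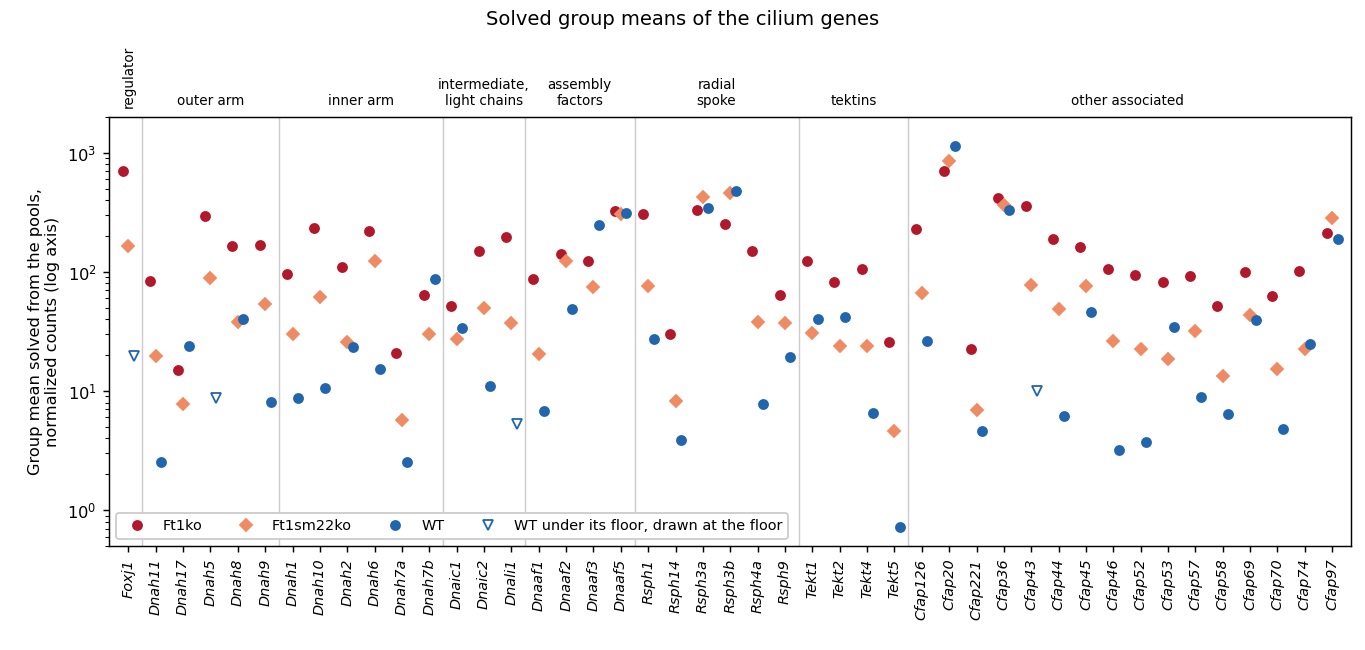
Solved group means of the 45 cilium genes in normalized counts on a log axis, by role, with dark circles for Ft1ko, diamonds for Ft1sm22ko and blue circles for WT; open triangles mark WT means under the floor (Foxj1, Dnah5, Dnali1 and Cfap43), drawn at the floor. Dark circles are the highest mark for most genes, while Dnaaf3, Dnah17, Dnah7b, Cfap20 and Rsph3b have WT highest.

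The Ft1sm22ko level relative to Ft1ko was alike for most cilium genes that were higher in Ft1ko than in WT hearts. That choice uses the Ft1ko mean, which is also the base of the share, so it favours low shares. Among the members left out, ratios of Ft1sm22ko over Ft1ko ran from 0.29 for Tekt2 to 1.84 for Rsph3b. Over the 34 genes higher in Ft1ko than in WT hearts, the Ft1sm22ko mean was a median of 25.7% of the Ft1ko mean, with quartiles of 23.6% and 31.1%. Over all 3482 genes with such a ratio the median was 59.3%, with quartiles of 30.8% and 85.1%. The highest shares among cilium genes were 87.0% for Dnaaf2, 58.3% for Rsph9 and 55.9% for Dnah6, and the lowest 17.8% for Tekt5. The Y-linked genes Ddx3y, Kdm5d, Eif2s3y and Uty held 21.7%, 22.0%, 25.2% and 36.5% of the Ft1ko level in Ft1sm22ko hearts. Their ratios of Ft1ko over WT were 1.45, 1.87, 1.27 and 0.86. The part of sex in the levels of the cilium genes was not tested. Whether the Ft1sm22ko signal came from all 4 hearts or from 1 of them was not tested, since no value per heart was used.

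Other genes of motile cilia that the name rule leaves out were summarised from a list of central pair, docking, ruler and nexin link genes. Of its 54 genes that entered, 45 were higher and 2 lower in Ft1ko than in WT hearts (23.5% and 16.5% of all genes). In Ft1sm22ko over WT hearts, 36 were higher and 4 lower (16.5% and 11.0% of all genes). The median log2 ratio of Ft1ko over WT was 4.14. By level, the first 4 were exceptions or near exceptions. Mlf1 and Spef1 were lower in Ft1ko than in WT hearts, with ratios of 0.39 and 0.37, Gas8 of the nexin link had 1.36, and Tppp3 had 2.92. Picked after their values were seen, Ccdc39 and Ccdc40, the molecular ruler of the axoneme, were at 151.8 and 234.1 in Ft1ko, 66.99 and 65.41 in Ft1sm22ko and 8.63 and 1.73 in WT hearts, where Ccdc40 was under its floor of 6.88.

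Genes that drive the making of multiple cilia were mixed. Of 15 regulators that entered, 10 were higher in Ft1ko than in WT hearts (23.5% of all genes). Higher in Ft1sm22ko than in WT hearts were 7 (16.5% of all genes). The 4 with the largest pooled means were Myb, Rfx1, E2f4 and Plk4, all with roles in other cells as well, and their ratios of Ft1ko over WT were 35.3, 0.64, 1.32 and 5.81. Myb, which thymocytes also express, held 5.0% of its Ft1ko level in Ft1sm22ko hearts. Mcidas and Ccno, which act in multiciliated cells and were picked after their values were seen, were at 25.91 and 39.96 in Ft1ko, 8.86 and 14.82 in Ft1sm22ko and 1.30 and 2.46 in WT hearts. Rfx2 and Rfx3, which bind the X-box of cilium genes, had ratios of Ft1ko over WT of 2.02 and 2.47 and of Ft1sm22ko over WT of 1.40 and 1.01.

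Machinery shared with immotile cilia did not have this pattern. Of 35 genes for intraflagellar transport and the primary cilium, 8 were higher and 1 lower in Ft1ko than in WT hearts. The share higher was near that of all genes (23.5%), and 16.5% of all genes were lower. The median log2 ratio of the list was 0.34. The genes of this list with the largest pooled means were Ift20, Kif3a, Ift81 and Ift172. Their ratios of Ft1ko over WT were 0.42, 0.60, 0.53 and 0.77, and Ift20 was the gene counted as lower. Of 19 genes of cytoplasmic dynein and dynactin, 1 was higher and 1 lower in Ft1ko than in WT hearts (23.5% and 16.5% of all genes). The median log2 ratio of the 19 was -0.04. Dync1h1, the heavy chain of cytoplasmic dynein, was at 4135 in Ft1ko, 4671 in Ft1sm22ko and 6939 in WT hearts.

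Markers of other cell types differed in how they varied over the groups. All 10 markers of airway secretory cells were higher in both mutants than in WT hearts (23.5% of all genes for Ft1ko, 16.5% for Ft1sm22ko). Their summed level was 33590 in Ft1ko, 10050 in Ft1sm22ko and 1047 in WT hearts, where 7 of 10 were under their floors. Scgb1a1, the main secreted protein of club cells, was at 11310 in Ft1ko, 3208 in Ft1sm22ko and 102.0 in WT hearts, the last under its floor of 334.0. Over the list Ft1sm22ko hearts held a median of 32.9% of the Ft1ko level, next to 25.7% for the cilium genes.

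All 10 alveolar markers were higher in Ft1ko hearts too (23.5% of all genes), but with another Ft1sm22ko share. Sftpc, surfactant protein C of alveolar type 2 cells, was at 35640 in Ft1ko hearts and under its floor of 890.6 in Ft1sm22ko and WT hearts. Alveolar markers were under their floors for 8 of 10 genes in Ft1sm22ko hearts and for 8 of 10 in WT hearts. They summed to 61450 in Ft1ko, 1583 in Ft1sm22ko and 1767 in WT hearts. Without floors the last 2 sums were 911.7 and 291.5, so the sums at the floors do not order these groups. Thymocyte markers, led by Rag1 and Lck, summed to 7583 in Ft1ko, 202.8 in Ft1sm22ko and 204.4 in WT hearts. Under their floors were 7 of 9 genes in Ft1sm22ko and 7 in WT hearts, and without floors these 2 sums were 170.8 and 112.8. Of 12 markers of general epithelium and lung endoderm, 11 were higher in Ft1ko than in WT hearts (23.5% of all genes). Over these 11, the Ft1sm22ko share of the Ft1ko level ran from 3.8% for Nkx2-1 to 49.9% for Krt19. The sums of this list were 7333 in Ft1ko, 1742 in Ft1sm22ko and 324.6 in WT hearts, where 7 were under their floors.

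Mesothelium markers had sums of 5072 in Ft1ko, 5516 in Ft1sm22ko and 1027 in WT hearts. Of the 10 cardiac muscle genes, 9 were lower in Ft1ko (16.5% of all genes) and 6 in Ft1sm22ko (11.0%) than in WT hearts. The sums of this list were 376500 in Ft1ko, 864000 in Ft1sm22ko and 1957000 in WT hearts. The exception, Myh7, the heavy chain of fetal heart muscle in mice, was at 2068 in Ft1ko, 4201 in Ft1sm22ko and 846.8 in WT hearts. The paper reports lower Myh7 in Ft1ko mice, from RNAseq and from Q-PCR, which is the opposite direction. The reason for this difference was not tested. The part of these cell types in the levels of the cilium genes was not tested.

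**Figure D4:**
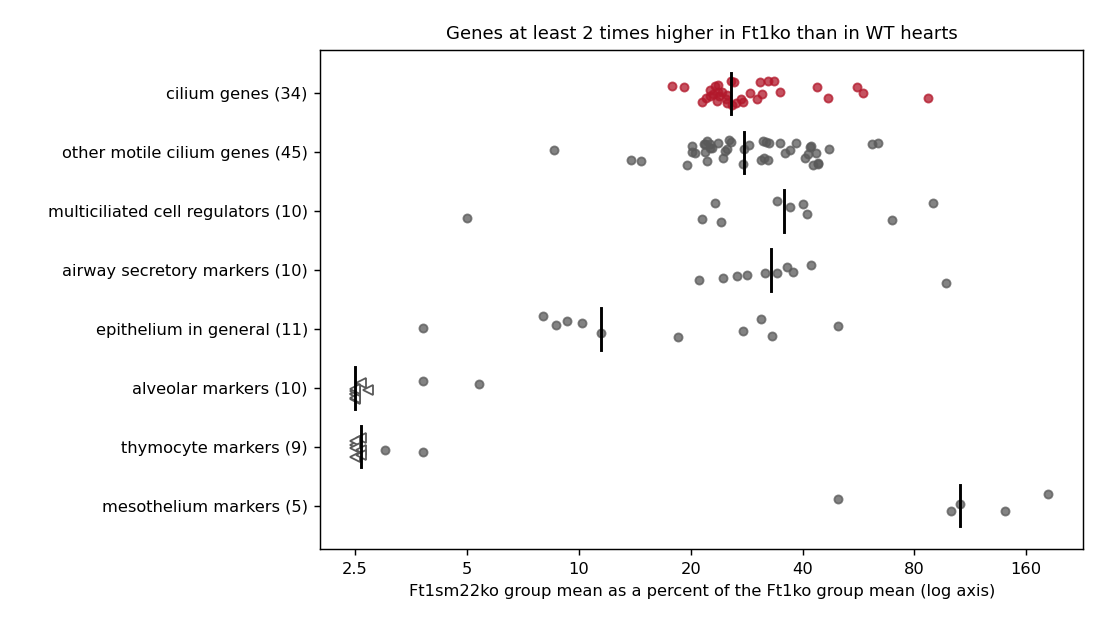
Ft1sm22ko group mean as a percent of the Ft1ko group mean on a log axis, for genes at least 2 times higher in Ft1ko than in WT hearts, with 1 point per gene, the number of genes in parentheses, a bar at the median and open triangles where Ft1sm22ko is at its floor. Medians were 25.7% for the cilium genes, 32.9% for airway secretory markers and 106.2% for mesothelium markers. For alveolar markers, most of which were at the floor in Ft1sm22ko hearts, the median was at most 2.5%.

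Cilium gene promoters often carry an X-box, the site that RFX factors bind. RefSeq promoter windows on GRCm38.p6, from 250 bases before to 50 after the start of transcription, were found for 41 of the 47 genes. The windows were searched on both strands for GTNNCC, then 3 bases, then GNNAC. It occurred in 12 of 41 cilium genes (29.3%) and in 825 of 13024 genes of the tables with a window (6.33%). The shorter GTTGCC, a spelling of the first part of this pattern, occurred in 15 of 41 (36.6%) and 14.83% of all, and TGTTTA, a core that forkhead factors such as Foxj1 can bind, in 10 of 41 (24.4%) and 11.07%. These were among 9 spellings searched, and were picked after the results of all were seen. A match is a description of the letters and not a site shown to be bound.

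The X-box stretches of 4 genes that were higher in Ft1ko hearts and of Dnaaf5, which was not, are shown upstream of the start, 5′ to 3′ on the strand of the gene, with the match in capitals.
Cfap126 at chr1:171122933-171123006: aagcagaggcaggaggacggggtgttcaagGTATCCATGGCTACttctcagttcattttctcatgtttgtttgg
Cfap44 at chr16:44394742-44394798: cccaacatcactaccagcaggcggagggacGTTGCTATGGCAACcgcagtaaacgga
Cfap45 at chr1:172521081-172521129: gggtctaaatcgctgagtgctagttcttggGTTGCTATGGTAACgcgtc
Tekt1 at chr11:72361883-72361927: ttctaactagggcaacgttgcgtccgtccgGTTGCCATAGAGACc
Dnaaf5 at chr5:139150187-139150234: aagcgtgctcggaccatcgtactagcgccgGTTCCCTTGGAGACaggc

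Cfap126, Cfap44, Cfap45 and Dnaaf5 lie on the plus strand and Tekt1 on the minus strand. The capitals of Cfap44 and Cfap45 fit the pattern when read on the opposite strand. Upstream matches of Dnaaf2, Dnah2 and Tekt4, also higher in Ft1ko hearts, and of Dnah17, which was not, are not shown. The match began 82 bases before the start in Cfap126, 27 in Cfap44, 19 in Cfap45, 15 in Tekt1 and 18 in Dnaaf5. Genes with and without the pattern were mostly high in Ft1ko hearts. Among cilium genes with a window that entered the ratios, 9 of 11 with the pattern and 20 of 28 without it were higher in Ft1ko than in WT hearts. For GTTGCC the numbers were 10 of 15 with it and 19 of 24 without it, and for TGTTTA 7 of 9 with it and 22 of 30 without it.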

How the data were processed

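The authors extracted RNA from 10 hearts, prepared stranded libraries and aligned reads with STAR to a reference named hg38, although the row names are mouse symbols. Their processing notes also name HTSeq and StringTie, without versions, and DESeq2 was fitted to each pair of groups. The strand setting of the counting is not given in the sources used here. The signal used is the mean of normalized counts that the authors deposited for each of 3 pairs. The deposited fold changes, standard errors, statistics and p-values are the authors' own comparisons and were not used.

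Tables were normalized separately, so each was scaled to the Ft1sm22ko with WT table by the median log ratio over 13748 genes with every pooled mean at least 10 (factors 0.7478 for Ft1ko with WT and 1.606 for Ft1ko with Ft1sm22ko). Group means were solved from the 3 pooled means and the numbers of hearts, which was checked on simulated data with few changed genes. A case with as many changed genes as in these hearts was not tested. As a check, 22 genes found almost only in the pools with Ft1ko had a ratio between these pools of 1.146, where the numbers of hearts give 1.167. The depth per heart is unknown. Genes in all 3 tables with a largest scaled mean of at least 10 entered. The genes named are Foxj1, the 20 members with the largest pooled mean, members to reach 2 per role, and up to 4 genes per list by level. Other members named were chosen after their values were seen. Members and lists were chosen with earlier results of these data known. Overlaps and shared sequence came from GENCODE M21. python 3.11.15, numpy 2.4.6, pandas 2.3.3 and matplotlib 3.10.9 were used.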

Additional observations from a re-analysis of the deposited data

How the results depend on the processing

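Alternatives were the scaling, the floor, the minimum level and the ratio that counts, and, chosen after seeing the data, a scaling anchored on genes of the Ft1ko pools and a set without Dnaaf3, Rsph3a, Rsph3b, Dnah7a and Dnah7b. With no scaling between the tables the median log2 ratio of the cilium genes was 4.75 for Ft1ko over WT, 3.85 for Ft1sm22ko over WT and -0.85 for Ft1sm22ko over Ft1ko, 43 genes were higher and 0 lower in Ft1sm22ko over WT, 5 were lower in Ft1sm22ko over Ft1ko, and Dnaaf3 turned to a log2 ratio of 0.28 for Ft1sm22ko over WT. That setting also moved the median of all genes to 4.09 for Ft1ko over WT and left 6620 genes with a negative mean beyond the floor. With ratios of 4 and 0.25, 14 genes were higher and 0 lower in Ft1sm22ko over WT, and 14 lower in Ft1sm22ko over Ft1ko. The anchored scaling gave 2 genes lower in Ft1ko over WT, and the smaller set 1 lower in Ft1sm22ko over WT. No other count moved by over 1.5 times. Among the log2 ratios of named genes under alternatives, 541 stayed close, 70 moved and 1 reversed. Of the 541, 69 came from no minimum level, 69 from the minimum level of 50 and 60 from the smaller set. Those settings only choose genes and cannot change a gene's own ratio. Ratios over a mean at its floor move with the floor, and that of Foxj1 for Ft1ko over WT was 5.15 on the log2 scale with the 5% floor and 4.15 with 10%. Scaling on genes with every mean at least 100 gave Dnah10, Dnah9 and Dnah6 log2 ratios for Ft1ko over WT of 5.11, 5.03 and 4.60. Leaving out single hearts could not be run on pooled means. No paired analysis was possible because the pooled means carry no replicate numbers.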
